A study of Mus musculus with 24 samples.

Results

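YAP/TAZ and TEAD target genes were followed in mouse sciatic nerve as a group of 9 genes out of 24421 in the count table. They comprise the transcriptional coactivators Yap1 and Wwtr1 (Wwtr1 encodes TAZ), the DNA-binding partner Tead1, the secreted targets Cyr61 and Ctgf, the intracellular target Ankrd1, and the targets Amotl2, Lats2 and Ajuba, whose products act back on the pathway. The genes were chosen by name as known genes of the pathway, with earlier results of these data known. All 9 were rows of the table, and 8 had enough reads to be among the 15385 genes tested. Ankrd1 did not.

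YAP and TAZ are held in the cytoplasm when the Hippo kinases, among them LATS1 and LATS2, phosphorylate them. When the kinases are inactive they enter the nucleus, bind TEAD factors and raise transcription of genes for matrix-associated proteins and growth, together with genes for inhibitors of the pathway itself. In peripheral nerve the pathway is known for its part in Schwann cell proliferation and myelination, and it responds to cell shape and tension. Because YAP and TAZ are controlled largely through their location and stability, the RNA level of their target genes is a more usual readout than that of Yap1 or Wwtr1.

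The study measured gene expression by RNA sequencing in sciatic nerve of mice with the genotype Nf1 flox/flox PostnCre+, labelled as bearing plexiform neurofibroma, a nerve sheath tumour that is benign. Its title names combined inhibition of CDK4/6 and ERK1/2 as the subject. Nf1 encodes neurofibromin, which restrains RAS and so the ERK cascade. The 4 groups of 6 libraries received vehicle, LY3214996, an inhibitor of ERK1/2 (ERKi below), abemaciclib, an inhibitor of CDK4 and CDK6 (CDKi), or LY3214996 together with abemaciclib (combination), each for 1 week. The floxed Nf1 alleles and the Cre recombinase were common to every group, so vehicle is the only control and no library shows the pathway in nerve with intact Nf1. The Cre is driven by Postn, so deletion is limited to cells that have expressed that promoter and their descendants, whereas the RNA came from the whole nerve. In such bulk RNA, fewer cells of a type and less RNA per cell cannot be told apart. The labels do not say whether a group's libraries came from separate animals, and p-values therefore measure only the spread between these libraries.

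Total counts ranged from 5391543 to 42321550 per library, and a count of 3, used as the floor of detection, was worth 0.0697 to 0.536 CPM (counts scaled to a common library total). All 10 marker genes of myelinating Schwann cells had reads in all 24 libraries. Other tissue differed among libraries: the mean of 10 neuronal genes ran from 1.97 to 9.63 log2 CPM, and 3 libraries (ERKi 3, CDKi 1 and CDKi 3) held 3155 to 4543 CPM of the liver gene Alb against at most 1.61 CPM elsewhere. ERKi 3 had the lowest fibroblast list and the highest neuronal list of all libraries, so results that rest on it are given with and without it. Levels below are CPM scaled by TMM, and differences are log2 fold changes with standard errors from edgeR's quasi-likelihood test on all 24 libraries, adjusted by the Benjamini-Hochberg method over 15385 genes. A gene is called changed at an adjusted p under 0.05.

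The promoters show where TEAD factors could bind. RefSeq promoter windows of GRCm38.p6, from 250 bases before to 50 bases after a transcription start, were found for 7 of the 9 genes, with none for Ctgf or Tead1. The 6-letter core of the TEAD motif, GGAATG or its reverse complement CATTCC, searched on both strands, was present in 7 of these 7 genes. Among all 27025 genes with a window it was present in 16.6%, and among all 32851 windows, which have the same length of 300 bases, in 14.7%. The AP-1 motif TGANTCA, which reads the same on both strands, was present in 0 of the 7 genes against 8.97% of all genes. With 7 genes, 0 cannot be set apart from that share. The 7 genes were chosen as known genes of the pathway, so their TEAD share is not independent of the choice. Such matches describe letters and not occupied sites. The 250 bases upstream of the Cyr61 start (chr3:145649986-145650235, minus strand, outside annotated exons) are shown whole, with the TEAD core in capitals. Cyr61 was picked because it had the smallest edgeR p-value of the group, although edgeR called it in no comparison. Any part of this core in the Cyr61 levels was not tested.

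Cyr61 upstream: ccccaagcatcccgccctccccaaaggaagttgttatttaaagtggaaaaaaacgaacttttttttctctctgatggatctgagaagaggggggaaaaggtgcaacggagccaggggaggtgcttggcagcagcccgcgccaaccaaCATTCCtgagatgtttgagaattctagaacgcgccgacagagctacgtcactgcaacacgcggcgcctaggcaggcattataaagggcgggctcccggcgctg

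The first base of the core lies 103 bases before the start in Cyr61. For the other genes 30 bases around each core follow, again 5′ to 3′ on the gene's strand with the core in capitals, so that the orientation and neighbouring letters can be compared.
Ankrd1, 210 bases before the start (chr19:36120037-36120066, minus strand): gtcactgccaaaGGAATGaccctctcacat
Ankrd1, 123 bases before the start (chr19:36119950-36119979, minus strand): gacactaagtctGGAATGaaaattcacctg
Amotl2, 65 bases before the start (chr9:102717727-102717756, plus strand): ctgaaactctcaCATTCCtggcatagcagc
Ajuba, 186 bases before the start (chr14:54577830-54577859, minus strand): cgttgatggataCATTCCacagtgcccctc
Ajuba, 164 bases before the start (chr14:54577808-54577837, minus strand): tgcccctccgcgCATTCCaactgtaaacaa
Yap1, 141 bases before the start (chr9:8004720-8004749, minus strand): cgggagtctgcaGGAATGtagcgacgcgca
Wwtr1, 136 bases before the start (chr3:57576029-57576058, minus strand): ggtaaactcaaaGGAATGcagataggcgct
Lats2, 5 bases into the transcript (chr14:57746102-57746131, minus strand): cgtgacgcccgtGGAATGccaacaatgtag
Ankrd1 and Ajuba had 2 cores each and the others 1. The core read GGAATG in Ankrd1, Yap1, Wwtr1 and Lats2, and CATTCC in Cyr61, Amotl2 and Ajuba. Lats2 and Wwtr1 had 2 windows each, and the core of Wwtr1 lay 170 bases before its other start. The Ankrd1, Amotl2 and Lats2 stretches lie in annotated exons of these genes, and the Cyr61, Ajuba, Yap1 and Wwtr1 stretches lie outside exons. In the lists of related genes described further below, the core was in 2 of the 12 other YAP/TAZ targets with a window (16.7%). It was in 4 of 7 TEAD factors and cofactors (57.1%) and 6 of 20 Hippo kinases and scaffolds (30%). Of the ERK pathway genes 2 of 6 had it (33.3%), and of the CCN genes 0 of 1. The list of serum response factor, its MRTF cofactors and their targets had it in 6 of 15 entries (40%). There Mrtfa and Mkl1 are 2 symbols of 1 gene, as are Mrtfb and Mkl2. The core of Mrtfb and Mkl2 is the same stretch, so the 6 entries count that gene again under its other symbol. The other YAP/TAZ targets were thus near the 16.6% of all genes, and 4 of the remaining lists were above it.

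No gene of the group was called changed in any comparison. In ERKi against vehicle edgeR called 0 of the 8 tested genes, where it called 0% of all 15385. For CDKi against vehicle the count was again 0 of 8, with 0% of all genes called. The combination against vehicle gave 0 of 8, beside 0.123% of all genes. Setting the combination against ERKi gave 0 of 8 with 0% of all genes, and against CDKi 0 of 8 with 0.0065% of all genes. Over the 12 libraries with ERKi (ERKi and combination) against the 12 without (vehicle and CDKi) the count was 0 of 8 with 0% of all genes called. The same comparison for CDKi, that is CDKi and combination against vehicle and ERKi, gave 0 of 8 and 0%, and the interaction of the drugs 0 of 8 and 0%. Unadjusted p-values under 0.05 came from Cyr61 in ERKi against vehicle, the combination against vehicle, the combination against CDKi and the 12-against-12 comparison for ERKi, and from Wwtr1 in the combination against ERKi. The numbers of genes with such a p among all tested ran from 480 to 1770 per comparison (3.12% to 11.5%). DESeq2 called Cyr61 in 2 comparisons, given below, and no other gene of the group, while limma-voom called 0 of them throughout.

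These counts stand beside different shares of all genes for each tool. Over all genes with an adjusted p, DESeq2 called 0.0501% in ERKi against vehicle, 0.359% in CDKi against vehicle and 1.73% in the combination against vehicle. It called 0.452% in the combination against ERKi, 0.91% in the combination against CDKi, 0.567% in the 12-against-12 comparison for ERKi, 0.144% in that for CDKi and 0.732% in the interaction. The shares called by limma-voom were 0.188% in the combination against vehicle, 0.026% in the combination against ERKi, 0.026% in the combination against CDKi and 0.0325% in the 12-against-12 comparison for ERKi, and 0% in the other 4 comparisons.

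Cyr61, also named Ccn1, encodes a secreted matricellular protein that binds integrins, and its gene lies at chr3:145646976-145649981 on the minus strand. Its level was lower where ERKi was given, alone or with CDKi, than in the other groups, although the difference did not pass the test adjusted over all genes. In vehicle the lowest, median and highest libraries were 26.2, 33.8 and 43.0 CPM (34.5 ± 6.52, mean ± SD, n = 6), and in CDKi 29.5, 45.5 and 61.9 CPM (45.9 ± 11.8, n = 6). In ERKi they were 6.01, 24.8 and 31.6 CPM (22.7 ± 9.51, n = 6), and in the combination 14.6, 21.5 and 31.3 CPM (21.4 ± 6.20, n = 6). Of the ERKi libraries 3 of 6 lay below every vehicle library, as did 5 of 6 combination libraries, and 4 of 6 CDKi libraries lay above every vehicle library. In order of mean level the groups ran CDKi, vehicle, ERKi, combination; CDKi and vehicle, and ERKi and combination, differed by less than the larger SD of the pair.

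Over the 12 libraries with ERKi, Cyr61 ranged from 6.01 to 31.6 CPM (22.04 ± 7.68, n = 12), against 26.2 to 61.9 CPM (40.2 ± 10.8, n = 12) in the 12 without. The ranges overlapped, with 8 of the 12 ERKi-treated libraries below all 12 others and 12 of 12 below their mean. The log2 fold change was -0.85 ± 0.20 (95% interval -1.26 to -0.45), with an edgeR p of 0.000234 that ranked 16th among 15385 genes and an adjusted p of 0.207. DESeq2 gave an adjusted p of 0.0114 for the same comparison, in which it called 89 of 15707 genes, and limma-voom gave 0.120. Without ERKi 3, the library with the lowest Cyr61 level, the difference was -0.76 with an edgeR adjusted p of 0.0930. Leaving out each library in turn moved it between -0.93 and -0.76, with adjusted p between 0.0930 and 0.344.

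The separate comparisons placed the same gene as follows. ERKi against vehicle gave a log2 fold change of -0.60 ± 0.28 (edgeR adjusted p = 0.672), and -0.41 without ERKi 3. The combination against vehicle gave -0.69 ± 0.28 (95% interval -1.26 to -0.12, edgeR adjusted p = 0.312), with 6 of 6 libraries below the vehicle mean. CDKi against vehicle gave 0.41 ± 0.27 (95% interval -0.16 to 0.98, edgeR adjusted p = 1), with 5 of 6 libraries above that mean. These 3 comparisons share the vehicle libraries. The widest gap was between the groups with both drugs and with CDKi alone: -1.10 ± 0.28 (95% interval -1.67 to -0.52), an edgeR p of 0.000628 and an adjusted p of 0.275. That gap passed the threshold under DESeq2 (adjusted p = 0.0133), which called 143 of 15707 genes there, and under edgeR when ERKi 3 was left out (-1.11, adjusted p = 0.0423), a library of neither group. The edgeR fit estimates the spread over all 24 libraries, so ERKi 3 can enter this comparison through what the groups share. An edgeR fit of the combination and CDKi groups alone, which also leaves out ERKi 3, called 0 genes there. Which shared step made the change was not tested. Adding CDKi to ERKi left Cyr61 at -0.08 ± 0.27 (95% interval -0.65 to 0.49, edgeR adjusted p = 0.924). The interaction was -0.49 ± 0.39 (edgeR adjusted p = 0.988).

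**Figure D1:**
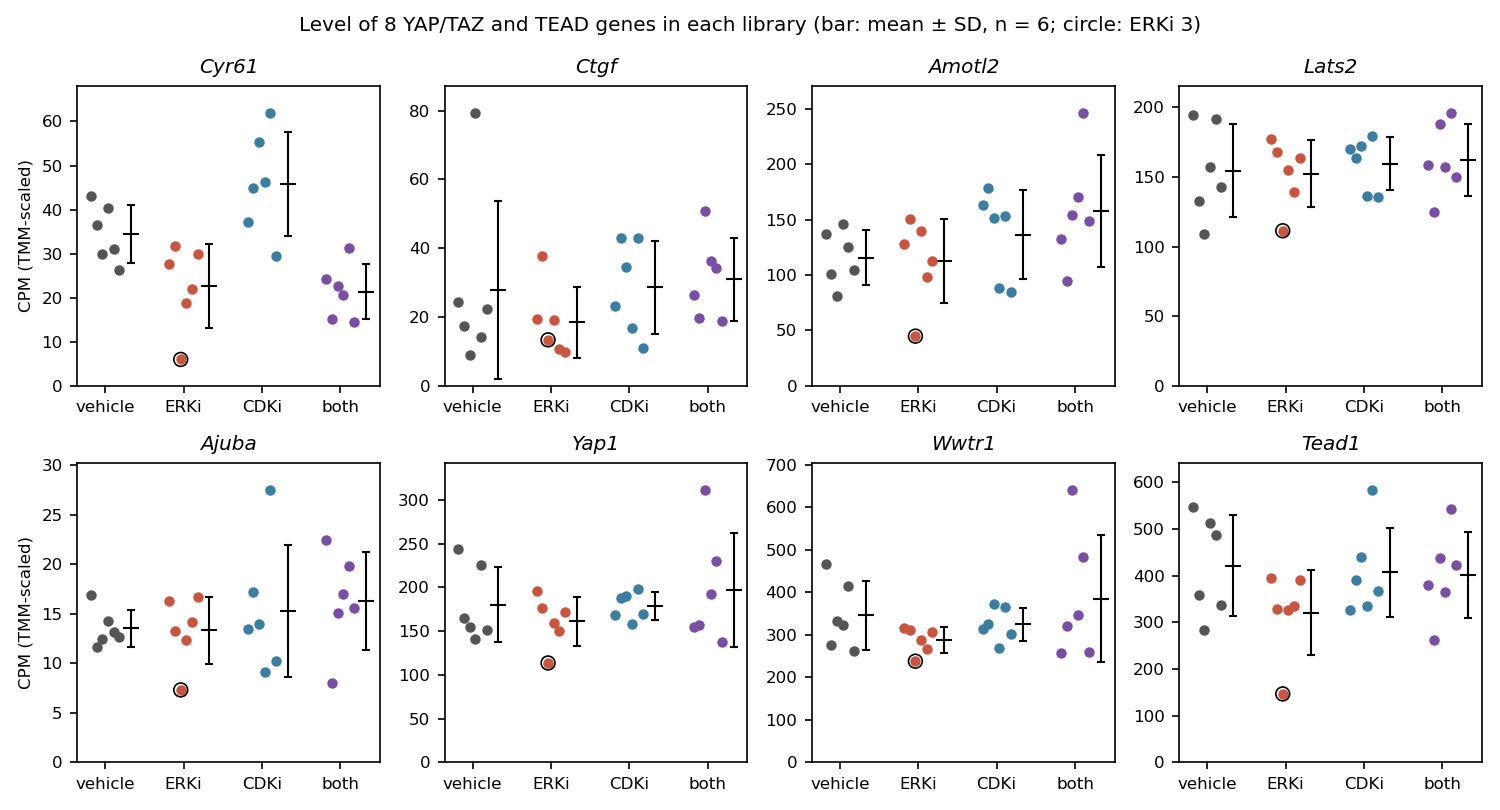
Level of the 8 tested genes in each library, as TMM-scaled CPM on a linear axis from 0, for vehicle, ERKi, CDKi and both drugs (the combination), with 1 point per library and a bar for mean ± SD (n = 6). Cyr61 is lower in the 2 groups with ERKi, Ctgf has 1 vehicle library at 79.3 CPM, and the circled library, ERKi 3, is the lowest of its group for Cyr61, Amotl2, Lats2, Ajuba, Yap1, Wwtr1 and Tead1.

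The content of other cell types is given beside the Cyr61 values. The mean of 10 fibroblast genes was 7.24 ± 0.63 log2 CPM in ERKi (6.21 to 7.76) and 7.16 ± 0.45 in the combination (6.42 to 7.64), against 7.81 ± 0.28 in vehicle (7.43 to 8.23) and 7.74 ± 0.62 in CDKi (6.72 to 8.45). In the 12-against-12 comparison for ERKi, 8 of the 10 fibroblast genes were lower, 0 were called by edgeR, DESeq2 or limma-voom, 7 had an unadjusted p under 0.05, and their median log2 fold change was -0.59. None of the 10 was at 0 in any library. Of all genes 9.5% had an unadjusted p under 0.05 in that comparison, and edgeR called 0%, DESeq2 0.567% and limma-voom 0.0325%. With the mean of the fibroblast list as a covariate the Cyr61 difference was -0.58 with an edgeR adjusted p of 0.9996, and the combination against vehicle gave -0.34. Yap1 and Wwtr1 had the same adjusted p in that fit, so it is not particular to Cyr61. The fit called 0 of 15385 genes in the 12-against-12 comparison for ERKi. With the neuronal list as a covariate the Cyr61 difference was -0.71 (edgeR adjusted p = 0.430). The neuronal list averaged 8.31 ± 0.68 log2 CPM in ERKi (median 8.09) and 6.93 ± 2.38 in the combination (median 7.99). It averaged 6.34 ± 2.60 in vehicle (median 7.58) and 6.01 ± 3.08 in CDKi (median 7.79). The medians lay closer together than the means. ERKi alone had no library poor in neuronal RNA (list under 6 log2 CPM), its lowest being at 7.75. All 10 genes of the list were higher in the 12 libraries with ERKi. Of these genes 0 were called by the 3 tools, and 0 had an unadjusted p under 0.05. Without the 3 libraries that held liver RNA the difference was -0.75, and without the 6 libraries poor in neuronal RNA it was -0.83. Markers of myelinating Schwann cells were lower in the 12 libraries with ERKi for 10 of 10 genes (median log2 fold change -0.29, 2 unadjusted p-values under 0.05, 0 called by edgeR or limma-voom, 1 by DESeq2). Of the 6 perineurial markers tested 5 were lower (median -0.33, 2 unadjusted p-values under 0.05, 0 called by the 3 tools), and Krt23 and Lypd2 were at 0 in some libraries. Endothelial genes were higher for 8 of 8 (median 0.29, 2 unadjusted p-values under 0.05). Macrophage genes were lower for 7 of 8 (-0.20, 0 such p-values), and pericyte and smooth muscle genes for 6 of 8 (-0.18, 1). Adipocyte genes were higher for 8 of 10 (0.21, 0) and skeletal muscle genes for 6 of 10 (0.22, 1). The 3 tools called 0 genes of these 5 lists. The part of RNA content from any of these cell types in the Cyr61 difference was not tested beyond these values.

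**Figure D2:**
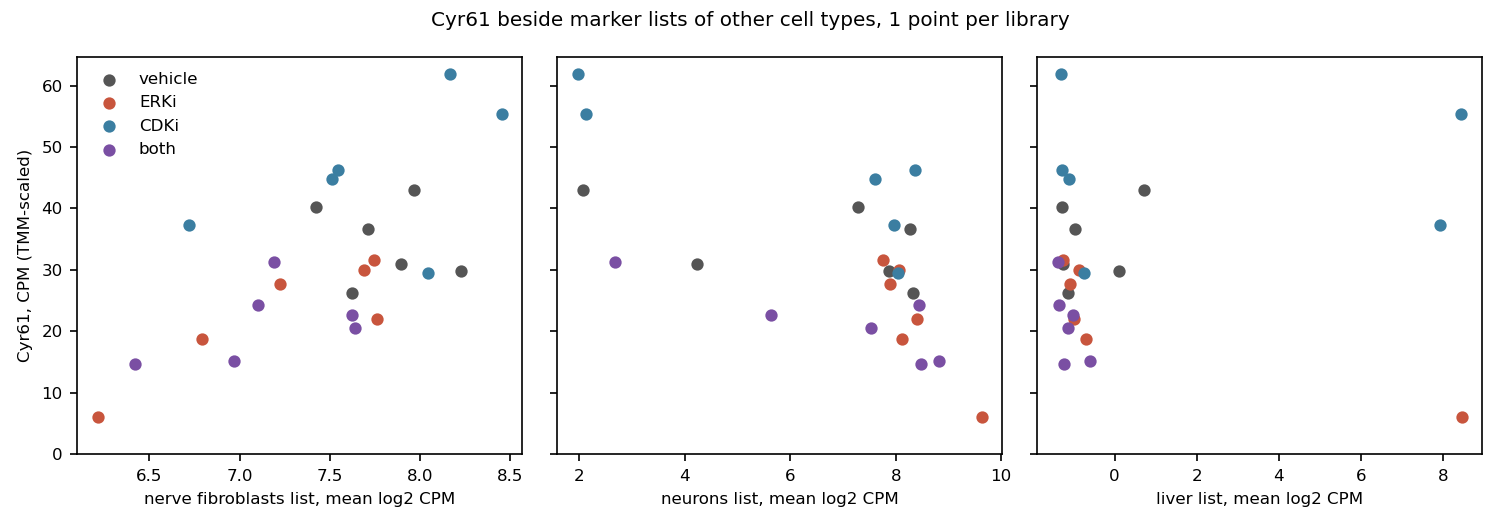
Cyr61 level of each library in TMM-scaled CPM (vertical axis, from 0) against the mean log2 CPM of the nerve fibroblast, neuron and liver marker lists (horizontal axes), with 1 point per library coloured by group. The libraries lowest on the fibroblast list, ERKi 3 and combination 6, have the lowest Cyr61 levels, 6.01 and 14.6 CPM. Other libraries do not follow that order: CDKi 1, next lowest on the list at 6.72 log2 CPM, has 37.3 CPM of Cyr61. Vehicle 3, at 8.23 log2 CPM, has 29.8 CPM. ERKi 3 stands at the low end of the first panel and the high end of the others, and the liver list is high in 3 libraries only.

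Ctgf, also named Ccn2, encodes the other classical YAP/TAZ-induced matricellular protein, and its gene lies at chr10:24595442-24598683 on the plus strand. It did not share the pattern of Cyr61. The lowest, median and highest libraries were 8.93, 19.98 and 79.3 CPM in vehicle (27.8 ± 25.8, n = 6), 9.81, 16.3 and 37.9 CPM in ERKi (18.4 ± 10.4), 11.2, 29.0 and 43.0 CPM in CDKi (28.7 ± 13.6), and 18.7, 30.4 and 50.8 CPM in the combination (31.1 ± 12.1). All 18 treated libraries lay inside the vehicle range, which vehicle 4 alone stretched to its upper end. ERKi against vehicle gave a log2 fold change of -0.60 ± 0.46 (95% interval -1.54 to 0.34, edgeR adjusted p = 0.676), and 0.06 without vehicle 4. The combination against vehicle gave 0.15 ± 0.45 (95% interval -0.79 to 1.09, edgeR adjusted p = 0.935), and 0.82 without vehicle 4. For CDKi against vehicle the value was 0.04 ± 0.45, and 0.71 without that library, again not called. Leaving out vehicle 4 thus moved each Ctgf comparison with vehicle more than leaving out any other library. The sign of the CDKi value also turned without any 1 of 7 other libraries, and that of the combination without vehicle 3 or combination 3. The comparison of combination with ERKi has vehicle 4 in neither group, although the spread was estimated over all 24 libraries. It gave 0.75 ± 0.46 (95% interval -0.19 to 1.70, edgeR adjusted p = 0.600), with 6 of 6 combination libraries above the ERKi mean. Of the exon bases of Ctgf, 23.2% are shared with Gm15270 on the opposite strand, and whether counting used strand is not given in the sources used here.

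Ankrd1 encodes a nuclear and sarcomeric ankyrin-repeat protein and is a sensitive YAP/TAZ target in many cultured cells (chr19:36111961-36120099, minus strand). It was close to undetected in this tissue. Summed over the 6 libraries of a group, it had 11 counts in vehicle, 5 with ERKi, 8 with CDKi and 7 with both drugs. The gene was at 0 in 3 vehicle, 4 ERKi, 3 CDKi and 4 combination libraries, and its highest value, 9 counts or 1.61 CPM, was in vehicle 3, the library with the lowest total. With no count filter the edgeR adjusted p of the Ankrd1 comparisons was at least 0.614. At this depth no difference was detectable. The floor covers counting error only: reads were amplified and carry no molecular identifiers, so they are not independent.

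Amotl2, Lats2 and Ajuba are targets whose products restrain or tune the pathway. Amotl2 (chr9:102716672-102733418, plus strand) encodes an angiomotin-family protein that binds YAP and keeps it out of the nucleus. Its lowest, median and highest libraries were 80.9, 115 and 146 CPM in vehicle (116 ± 24.5, n = 6) and 44.9, 120 and 150 CPM in ERKi (112 ± 37.9). They were 85.0, 152 and 178 CPM in CDKi (137 ± 39.9) and 94.2, 151 and 246 CPM in the combination (158 ± 50.4). With CDKi, alone or combined, 4 of 6 libraries of the group lay above every vehicle library, and the others fell inside the vehicle range. Over the 12 libraries with CDKi against the 12 without, Amotl2 gave a log2 fold change of 0.36 ± 0.18 (95% interval -0.01 to 0.74, edgeR adjusted p = 0.652), with 9 of 12 above the mean of the others. The combination against vehicle gave 0.45 ± 0.25 (95% interval -0.08 to 0.97, edgeR adjusted p = 0.526), and 0.28 without combination 5, the library with the highest Amotl2 level. In ERKi against vehicle it was -0.05 ± 0.25, and 0.12 without ERKi 3, which held the lowest level of all 24 libraries.

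Lats2 encodes one of the kinases that phosphorylate YAP and TAZ, and its transcription is raised by them in a feedback loop (chr14:57689662-57758388, minus strand). Its largest difference from vehicle, 0.07 on the log2 scale, was smaller than that of any other tested gene of the group. Its median in vehicle was 150 CPM, with a range of 109 to 194. The medians were 159 CPM with ERKi (111 to 177), 167 CPM with CDKi (136 to 180) and 158 CPM with both drugs (125 to 196). All libraries of the treated groups lay inside the vehicle range except 1 combination library above it. The log2 fold changes against vehicle were -0.02 ± 0.14 with ERKi, 0.05 ± 0.14 with CDKi and 0.07 ± 0.14 with both drugs. The 95% interval of the last ran from -0.22 to 0.36. Of the exon bases of Lats2, 42.4% are shared with the annotated gene Gm49361 on the same strand, so its count may have been affected by how shared reads were assigned.

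Ajuba encodes a LIM-domain protein that binds LATS kinases and limits their activity towards YAP (chr14:54567472-54577558, minus strand). Its median was 12.9 CPM in vehicle (range 11.7 to 16.96). With ERKi it was 13.7 CPM (7.32 to 16.7), with CDKi 13.7 CPM (9.09 to 27.5) and with both drugs 16.3 CPM (7.99 to 22.5). The groups overlapped, and the spread was wider in CDKi (SD 6.67) than in vehicle (SD 1.88). The combination against vehicle gave a log2 fold change of 0.27 ± 0.25 (95% interval -0.24 to 0.78, edgeR adjusted p = 0.745), and 0.16 without combination 1. CDKi against vehicle gave 0.17 ± 0.25, and -0.07 without CDKi 5, the library with the highest Ajuba level and the highest muscle list of all 24.

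**Figure D3:**
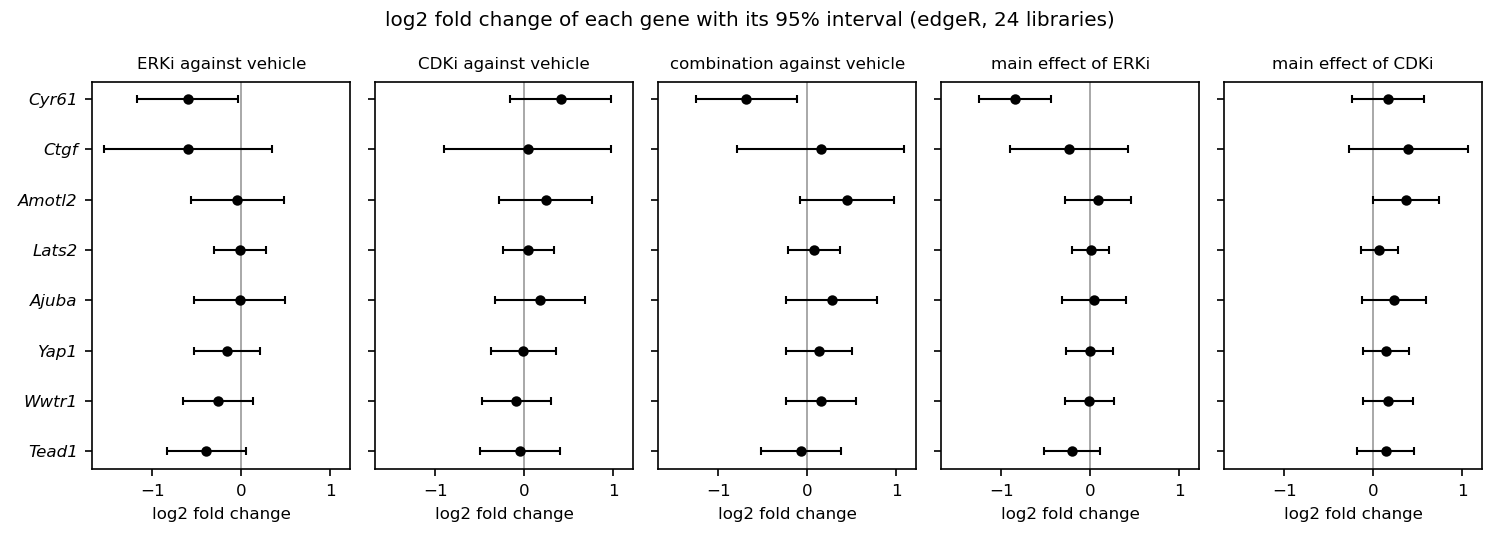
Log2 fold change of the 8 tested genes in 5 comparisons, with the 95% interval from edgeR's fit of all 24 libraries; the last 2 panels set the 12 libraries with a drug against the 12 without it. The Cyr61 interval lies below 0 in ERKi against vehicle, the combination against vehicle and the 12-against-12 comparison for ERKi, and the intervals of the other genes reach 0 in all 5 panels, with none of the 40 values called.

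Wwtr1 was the most abundant of the 9 genes once length was considered. Per kilobase of exon, vehicle nerve held 72.4 ± 16.9 CPM of Wwtr1 and 19.5 ± 4.67 CPM of Yap1 (n = 6 each), so the TAZ gene was the more abundant of the pair. On the same scale Tead1 was at 31.0 ± 7.99, Lats2 at 22.2 ± 4.83, Amotl2 at 18.4 ± 3.89, Cyr61 at 17.1 ± 3.23, Ctgf at 9.72 ± 9.02, Ajuba at 3.72 ± 0.516 and Ankrd1 at 0.101 ± 0.224 CPM per kilobase. Exon length is that of all annotated exons of a gene together, so genes with rarely used exons are placed too low by this measure.

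Yap1 (chr9:7931999-8004596, minus strand) had lowest, median and highest libraries of 141, 160 and 244 CPM in vehicle and 114, 166 and 196 CPM in ERKi. They were 158, 179 and 199 CPM in CDKi and 138, 175 and 312 CPM in the combination. The groups overlapped, and 1 combination library, combination 3, lay above every vehicle library. The log2 fold changes of Yap1 against vehicle were -0.16 ± 0.18 with ERKi, -0.01 ± 0.18 with CDKi and 0.13 ± 0.18 with both drugs, the last with a 95% interval of -0.24 to 0.50. Without combination 3 it was -0.05, and ERKi against vehicle was -0.067 without vehicle 1.

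Wwtr1 (chr3:57455649-57575910, minus strand) ran at 261, 328 and 467 CPM in vehicle and 238, 297 and 316 CPM in ERKi as lowest, median and highest. In CDKi it was at 268, 320 and 372 CPM, and in the combination at 257, 334 and 641 CPM. All 6 ERKi libraries lay below the vehicle mean, with 1 below the vehicle range, and 2 combination libraries lay above that range and 2 below it. The combination against ERKi gave a Wwtr1 log2 fold change of 0.42 ± 0.19 (95% interval 0.03 to 0.81, edgeR adjusted p = 0.502), and 0.22 without combination 3. Against vehicle the values were -0.27 ± 0.19 in ERKi (edgeR adjusted p = 0.673, and -0.17 without vehicle 1) and 0.16 ± 0.19 in the combination (adjusted p = 0.831), and the latter was -0.05 without combination 3. That library also had the highest endothelial list, 5.56 log2 CPM against 3.45 to 4.91 in the other 23. The 8 endothelial genes were all higher in the combination than in vehicle (median log2 fold change 0.79, 8 unadjusted p-values under 0.05, 0 called by edgeR or limma-voom, 1 by DESeq2). Of all genes 11.5% had such a p in that comparison, and edgeR called 0.123%, limma-voom 0.188% and DESeq2 1.73%. The part of endothelial RNA in the Wwtr1 values was not tested.

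Tead1 encodes a TEAD factor, which binds DNA and recruits YAP or TAZ (chr7:112679318-112906807, plus strand). Its lowest, median and highest libraries were 283, 424 and 546 CPM in vehicle and 147, 332 and 395 CPM in ERKi. In CDKi they were 326, 379 and 584 CPM, and in the combination 261, 401 and 543 CPM. All 6 ERKi libraries were below the vehicle mean, and 5 of the 6 lay inside the vehicle range. ERKi against vehicle gave -0.39 ± 0.22 (95% interval -0.84 to 0.06, edgeR adjusted p = 0.672), and -0.25 without ERKi 3. The other groups were nearer to vehicle, at -0.05 ± 0.22 in CDKi and -0.07 ± 0.22 in the combination.

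As a list, the 8 tested genes were all lower in ERKi than in vehicle (median log2 fold change -0.21, against 0.00 for all genes), and all 8 were higher with CDKi than without it over 12 libraries each (0.16, against -0.01 for all genes). Without ERKi 3, Amotl2, Lats2 and Ajuba were higher in ERKi than in vehicle. In the combination 6 of 8 were higher than in vehicle and 2, Cyr61 and Tead1, were lower, with a median of 0.14 against 0.04 for all genes. In the combination against ERKi 7 of 8 were higher (median 0.31, against -0.01), Cyr61 being the exception. None of these genes was called by edgeR in these comparisons, which share libraries. Beside the values for CDKi over 12 libraries each, 8 of 8 endothelial genes were higher (median 0.48, 7 unadjusted p-values under 0.05), as were 10 of 10 adipocyte genes (0.68, 7) and 9 of 10 skeletal muscle genes (2.21, 6), with 0 called by edgeR, DESeq2 or limma-voom. Of all genes 7.69% had such a p in that comparison, and edgeR called 0%, DESeq2 0.144% and limma-voom 0%. The part of these tissues in the values of the group was not tested. After subtracting group means, the correlation of log2 CPM pooled over 24 libraries was positive in 28 of 28 pairs. It ran from 0.288 to 0.919 with a median of 0.617. It was not computed within single groups, and the share of positive pairs among all genes was not computed. Yap1 and Wwtr1 were the closest pair (r = 0.919). Without ERKi 3 the 28 correlations were again positive, from 0.255 to 0.930 with a median of 0.551, and Cyr61 with Amotl2 went from 0.754 to 0.553. Without subtraction of group means, Cyr61 with Amotl2 went from 0.497 to 0.139, Cyr61 with Ajuba from 0.477 to 0.261 and Cyr61 with Yap1 from 0.436 to 0.219 when that library was left out. These pairs share depth, scaling and tissue content, and the values are given as a description.

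Over the 24 libraries, genes whose log2 CPM followed each member most closely were Stard5, Adgra3 and Ptpn13 for Cyr61 (Pearson r 0.864, 0.855 and 0.853) and Rcor3, Sik1 and Zfp182 for Ctgf (0.867, 0.852 and 0.845). For Amotl2 they were Arhgef10, Rhbdf2 and Cluap1 (0.960, 0.948 and 0.948), for Lats2 Ppfia1, Ski and Rela (0.911, 0.909 and 0.905), and for Ajuba Mprip and St3gal3 (0.926 and 0.908). For Yap1 they were Nek9 and Lsm14a (0.949 and 0.936), for Wwtr1 Hnrnpul2, Samd4 and Dennd5a (0.939, 0.934 and 0.932), and for Tead1 Ndst1, Mtmr12 and Pbxip1 (0.962, 0.952 and 0.933). Without the 2 libraries farthest from the member's median, ERKi 3 among them for all but Ctgf and Wwtr1, the first-named genes stood at 0.787 for Cyr61, 0.863 for Ctgf, 0.927 for Amotl2, 0.862 for Lats2, 0.878 for Ajuba, 0.905 for Yap1, 0.890 for Wwtr1 and 0.947 for Tead1. No gene named here appears for more than 1 member.

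The rest of the pathway was examined through lists of genes chosen by name, likewise with earlier results of these data known. Of 24 Hippo kinases and scaffolds, such as Stk3, Lats1 and Nf2, 0 were called in the combination against vehicle by edgeR, DESeq2 or limma-voom, 3 had an unadjusted p under 0.05, and the median log2 fold change was 0.04. Of all genes 11.5% had such a p in that comparison, and the tools called 0.123%, 1.73% and 0.188%. The smallest p-values of the Hippo list belonged to Fat4 and Dchs1, protocadherins of the upstream arm. Fat4 was at 29.0 ± 6.35 CPM in vehicle and 39.1 ± 6.57 in the combination (0.43 ± 0.15, edgeR adjusted p = 0.241), and Dchs1 at 3.94 ± 0.993 and 6.32 ± 3.22 CPM (0.69 ± 0.29, adjusted p = 0.344, and 0.40 without combination 3). Of the other TEAD factors and cofactors 7 of 9 were tested and 0 were called by any of the 3 tools, with 0 unadjusted p-values under 0.05. Tead4 was at 7.36 ± 2.06 CPM in vehicle and 11.8 ± 5.23 in the combination (0.68, edgeR adjusted p = 0.492), and Tead3 at 19.4 ± 6.73 and 27.3 ± 7.29 (0.49, adjusted p = 0.576).

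Among 18 other genes known as YAP/TAZ targets, 1 was called lower in the combination than in vehicle by edgeR, none higher, and 9 lay on each side of 0 (median log2 fold change 0.01). DESeq2 called 3 of the 18 and limma-voom 0. Over all genes the tools called 0.123% (edgeR), 1.73% (DESeq2) and 0.188% (limma-voom). The called gene was Fjx1, which encodes the mouse relative of four-jointed, a kinase of the fly Hippo pathway. Fjx1 ran from 5.11 to 7.50 CPM in vehicle (6.06 ± 0.995, n = 6) and from 2.27 to 3.003 CPM in the combination (2.61 ± 0.267, n = 6). The gene was named because it was called in this comparison, so the distance between these ranges is not separate support. In ERKi its mean lay between those of vehicle and the combination (2.87 to 6.65 CPM), and in CDKi it was at the vehicle level (3.88 to 10.2 CPM). The log2 fold change of the combination was -1.21 ± 0.23 (95% interval -1.68 to -0.73, edgeR adjusted p = 0.0362). The Fjx1 call was held with 8 of the 24 libraries left out in turn, the adjusted p ranging from 0.0239 to 0.113, and the fold change from -1.25 to -1.14. It was kept without vehicle 4, ERKi 2, 3, 5 or 6, or CDKi 1, 2 or 3, and lost without any of the other 16 libraries. It was also lost when the fibroblast list was a covariate (-0.88, adjusted p = 0.261) and when the 6 libraries poor in neuronal RNA were left out (-1.13, adjusted p = 0.518). With limma-voom the adjusted p was 0.0908, with no count filter 0.0708 and with the muscle list as a covariate 0.0522. In the 12-against-12 comparison for ERKi, Fjx1 gave -0.88 ± 0.16 (edgeR adjusted p = 0.0738), with 11 of 12 libraries below the mean of the others.

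Igfbp3, which encodes a binding protein for insulin-like growth factors, came next in that list, at 43.6 ± 8.58 CPM in vehicle and 21.8 ± 6.18 in the combination (-0.997 ± 0.247, edgeR adjusted p = 0.0988). It was at 38.3 ± 9.29 CPM in ERKi and 44.8 ± 20.2 in CDKi. Of the CCN family beyond Cyr61 and Ctgf, 2 of 4 genes were tested and 0 were called by edgeR or limma-voom, both with an unadjusted p under 0.05, and DESeq2 called 1. In the combination against vehicle 11.5% of all genes had such a p, and edgeR called 0.123%, limma-voom 0.188% and DESeq2 1.73%. Wisp1 (CCN4) was at 26.7 ± 6.93 CPM in vehicle and 12.7 ± 4.05 in the combination (-1.06 ± 0.29, edgeR adjusted p = 0.123). Nov (CCN3) was at 79.7 ± 19.5 and 48.4 ± 14.8 CPM (-0.72 ± 0.29, adjusted p = 0.310).

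Serum response factor and its MRTF cofactors act on overlapping cytoskeletal genes and share with YAP a response to tension. The list held these factors as well as their targets. Of its 15 genes in the table, 0 were called in the combination by any of the 3 tools, and 3 had an unadjusted p under 0.05, as did 11.5% of all genes. The smallest p-values were those of Cnn1 (2.46, edgeR adjusted p = 0.175) and Acta2 (1.15, adjusted p = 0.333), both contractile genes of smooth muscle. Without combination 3 the values were 1.21 and 0.34. In that library Cnn1 was at 6.56 CPM, against a group median of 0.615, and Acta2 at 125 CPM against 25.3. The ERK pathway's own output genes, measured as a reference for the inhibitor, lay below 0 throughout: 12 of 12 tested were lower in the combination, 2 of them called by edgeR, 5 by limma-voom and 7 by DESeq2, with a median log2 fold change of -0.78, where the tools called 0.123%, 0.188% and 1.73% of all genes. Etv4 went from 18.6 ± 5.57 to 6.14 ± 2.02 CPM (-1.60 ± 0.24, edgeR adjusted p = 0.0169) and Spry4 from 59.7 ± 20.8 to 18.9 ± 10.1 (-1.66 ± 0.33, adjusted p = 0.0399). Dusp6 was at 218 ± 31.5 and 120 ± 32.6 CPM (-0.86 ± 0.19, adjusted p = 0.0690). In ERKi alone 11 of these 12 genes were lower than in vehicle, with 0 called by any of the 3 tools, 0 with an unadjusted p under 0.05, and a median of -0.26. Of all genes 6.34% had such a p in that comparison. Leaving out 1 library ended the Etv4 call in 3 of 24 cases (combination 2, 5 or 6, adjusted p up to 0.0658) and the Spry4 call in 18 of 24 (adjusted p up to 0.113); Spry4 was kept without vehicle 4, ERKi 3 or 6, CDKi 2 or 3, or combination 3. Both calls were lost with the fibroblast list as a covariate (Etv4 -1.34, edgeR adjusted p = 0.0892, and Spry4 -1.30, adjusted p = 0.261) and without the 6 libraries poor in neuronal RNA (-1.41 and -1.57, adjusted p = 0.255 for each). The Spry4 call was also lost with no count filter (adjusted p = 0.0708) and when edgeR was run on the 2 groups alone (adjusted p = 0.115).

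**Figure D4:**
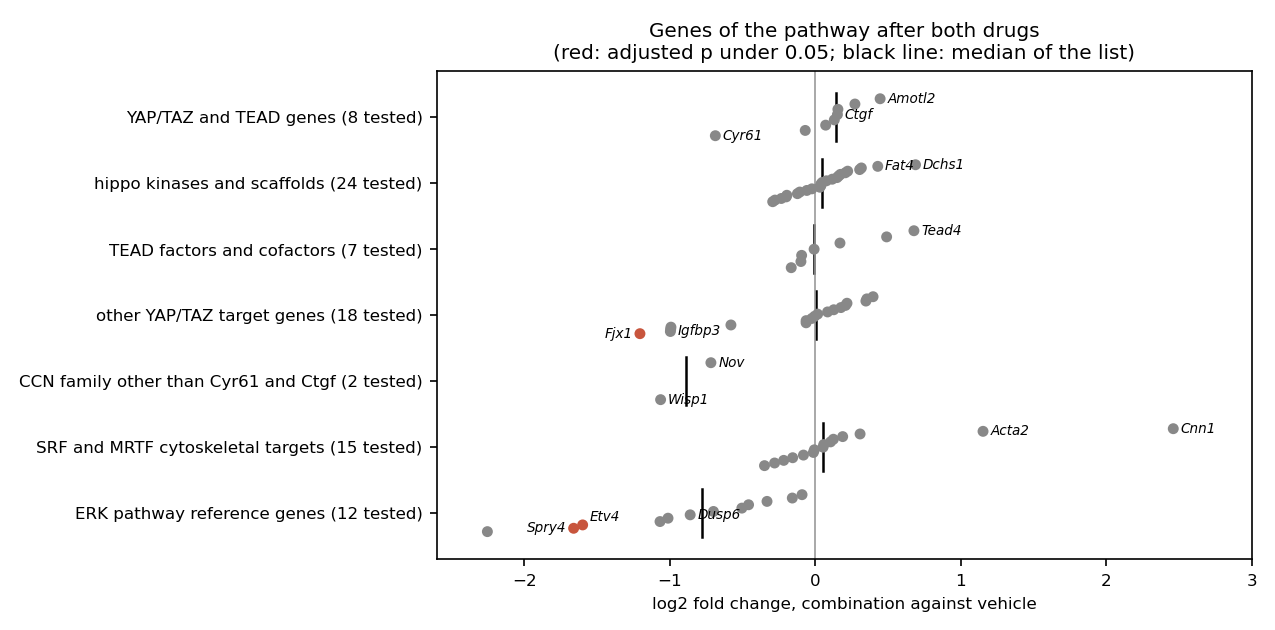
Log2 fold change of the combination against vehicle for each tested gene of the YAP/TAZ and TEAD group and of 6 other lists, from edgeR's fit; each point is a gene, red where the adjusted p is under 0.05, and the black line is the median of its list. Fjx1, Etv4 and Spry4 are the called genes, Cyr61 lies at -0.69 apart from the rest of its group, and the ERK pathway genes have the median -0.78.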

How the data were processed

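RNA of 24 sciatic nerve samples was sequenced, and libraries are named by the treatment label and a number that only names them. The authors deposited 1 table of raw counts of reads per gene. FastQC, STAR, DESeq2 and the build mm10 are named per the submitters' processing notes, while for the counting program, annotation, versions and strand setting the sources used here give nothing. Per the labels' protocols, ribosomal RNA was removed with a kit, while the molecule label reads polyA RNA. The members and gene lists were chosen with earlier results of these data known.

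Counts were analysed with edgeR 4.0.16 in R 4.3.3. The filter on expression (minimum count 10, minimum total 15) kept 15385 of 24421 genes, holding at least 98.6% of each library's counts. TMM scaling and a robust quasi-likelihood fit with a mean per group left 20 residual degrees of freedom (common dispersion 0.129, or 35.9% as a biological coefficient of variation). Each of 8 contrasts was tested two-sided, adjusted by the Benjamini-Hochberg method with a threshold of 0.05. Each 12-against-12 comparison is the contrast of group means. Standard errors are the log2 fold change over the square root of F. Log2 CPM used a prior count of 2. The procedure was tested on simulated data. Replicates were compared first: over 60 pairs within groups the chi-square per degree of freedom was at least 18.9, so none was a repeat within sampling noise.

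Named genes were all 9 members, Dusp6, Spry4 and Etv4, list genes called in any comparison, the 2 genes of each list with the smallest p in the combination against vehicle, and, for each member, the 3 genes with the highest Pearson r among genes with a mean log2 CPM of at least 1, of which 2 are not reported here. Gene coordinates and exon lengths come from the GENCODE annotation of GRCm38, which shares the coordinates of mm10, and promoters from RefSeq. The alternatives tried were RLE scaling, no count filter, DESeq2 1.42.0, limma 3.58.1 (voom, with quality weights per sample), only the groups compared, neuron or muscle lists as covariates, leaving out libraries with Alb over 100 CPM or a neuronal list under 6 log2 CPM, and each library in turn. The fibroblast covariate was chosen after seeing the data.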

Additional observations from a re-analysis of the deposited data

Results flagged for a closer look

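In 1 library, ERKi 3, the log2 CPM of 4 genes stood apart at the low end of the 6 ERKi libraries. Cyr61 was at 2.61 log2 CPM there, with the nearest other library at 4.24, and Amotl2 was at 5.49, with the nearest at 6.62. Ajuba was at 2.90, with the nearest at 3.65, and Tead1 at 7.20, with the nearest at 8.35. In each case the gap to the nearest library was over 0.625 of the group's range, the critical value of Dixon's test at the 95% level for 6 samples. This was seen in 4 of 32 combinations of gene and group tested, where chance flags about 1 in 20. All 4 come from 1 library and from genes whose levels were correlated. They are therefore not independent of each other, and their number cannot be judged by that rate. The same library held 4543 CPM of Alb, the highest neuronal list (9.63 log2 CPM) and the lowest fibroblast (6.21 log2 CPM) and myelinating Schwann cell (7.87 log2 CPM) lists of all libraries. Their part in the low values was not tested.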

How the results depend on the processing

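The count of called genes in the group was 0 in the 8 comparisons with every alternative run except DESeq2, which gave 1 (Cyr61) in the combination against CDKi and 1 in the 12-against-12 comparison for ERKi, and edgeR without ERKi 3, which gave 1 in the combination against CDKi, so that leaving out a library gave 0 to 1 there. The fit of only the groups compared was run for the 5 comparisons of 2 groups. Over the named genes 660 of 745 values under the alternatives kept their direction and their side of the threshold. Below are the log2 fold changes whose sign turned, in 35 of 77 results, none of them called after the turn; the cause was not tested. The largest result that turned was Ctgf in ERKi against vehicle, -0.60. No paired analysis was possible because the replicate numbers only name libraries and pair none across groups. A depth of 5391543 counts in the shallowest library, and the spread between libraries, limit genes such as Ankrd1.

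With limma-voom the values were Amotl2 0.13, Lats2 0.13, Ajuba 0.19 for ERKi against vehicle, Yap1 0.0548, Tead1 0.0104 for CDKi against vehicle and Wwtr1 -0.0099, Tead1 0.0116 for combination against vehicle. With limma-voom there were also Lats2 -0.028 for combination against ERKi, Lats2 -0.0047, Yap1 -0.0512, Wwtr1 -0.0015, Tead1 0.0012 for combination against CDKi and Cyr61 -0.0087 for CDKi over 12 libraries. With limma-voom there were also Lats2 -0.13, Yap1 -0.0446 for the interaction. With a neuron-list covariate the values were Amotl2 0.14, Lats2 0.14, Ajuba 0.17, Yap1 0.0404 for ERKi against vehicle, Ctgf -0.0809 for CDKi against vehicle and Lats2 -0.0173 for combination against ERKi. With a neuron-list covariate there were also Tead1 0.0834 for combination against CDKi, Yap1 0.12, Wwtr1 0.13 for ERKi over 12 libraries and Lats2 -0.0557 for the interaction. Without the liver-positive libraries the values were Amotl2 0.12, Lats2 0.0534, Ajuba 0.11 for ERKi against vehicle, Lats2 -0.0013 for CDKi against vehicle and Yap1 0.03, Wwtr1 0.0317 for ERKi over 12 libraries. Without the liver-positive libraries there were also Ajuba -0.0799 for the interaction. Without the neuron-poor libraries the values were Amotl2 0.0462, Lats2 0.16, Ajuba 0.0591, Yap1 0.0672 for ERKi against vehicle, Ctgf -0.45, Ajuba -0.0234, Yap1 0.17, Wwtr1 0.0326 for CDKi against vehicle and Ctgf -0.37, Wwtr1 -0.0174 for combination against vehicle. Without the neuron-poor libraries there were also Lats2 -0.0481, Yap1 -0.0088 for combination against ERKi, Lats2 -0.0551, Yap1 -0.11, Wwtr1 -0.05 for combination against CDKi and Cyr61 -0.0169 for CDKi over 12 libraries. Without the neuron-poor libraries there were also Lats2 -0.22, Yap1 -0.18 for the interaction. With a nerve fibroblast-list covariate the values were Amotl2 0.0127, Lats2 0.0447, Ajuba 0.14, Yap1 0.0269 for ERKi against vehicle, Yap1 0.0196 for CDKi against vehicle and Tead1 0.14 for combination against vehicle. With a nerve fibroblast-list covariate there were also Cyr61 0.0362 for combination against ERKi, Tead1 0.19 for combination against CDKi and Yap1 0.17, Wwtr1 0.16 for ERKi over 12 libraries. With no count filter the values were Yap1 0.0112 for CDKi against vehicle and Lats2 -0.0048 for ERKi over 12 libraries. With a skeletal muscle-list covariate the values were Ctgf -0.12, Ajuba -0.10 for CDKi against vehicle, Tead1 0.0228 for combination against CDKi and Lats2 -0.0062 for ERKi over 12 libraries.

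With each library left out in turn, 1715 of 1848 values kept direction and call. For ERKi against vehicle the ranges were Ctgf -0.96 to 0.0612, Amotl2 -0.15 to 0.12, Lats2 -0.11 to 0.0529, Ajuba -0.11 to 0.11. For CDKi against vehicle the ranges were Ctgf -0.13 to 0.71, Lats2 -0.0266 to 0.13, Ajuba -0.0667 to 0.29, Yap1 -0.0612 to 0.0996, Wwtr1 -0.15 to 0.0218, Tead1 -0.17 to 0.0454. For combination against vehicle the ranges were Ctgf -0.0466 to 0.82, Lats2 -0.0121 to 0.15, Yap1 -0.0487 to 0.23, Wwtr1 -0.0525 to 0.26, Tead1 -0.17 to 0.0225. For combination against ERKi the ranges were Cyr61 -0.28 to 0.0388. For combination against CDKi the ranges were Ctgf -0.091 to 0.25, Lats2 -0.0444 to 0.0854, Ajuba -0.0213 to 0.34, Yap1 -0.0475 to 0.21, Tead1 -0.13 to 0.0955. For ERKi over 12 libraries the ranges were Ctgf -0.42 to 0.0835, Amotl2 -0.0108 to 0.16, Lats2 -0.048 to 0.0337, Ajuba -0.0327 to 0.16, Yap1 -0.11 to 0.0326, Wwtr1 -0.12 to 0.0314. For the interaction the ranges were Lats2 -0.0384 to 0.14, Ajuba -0.0143 to 0.36.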
